A study of Drosophila melanogaster with 8 samples.

Results

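Heads of vriΔ679 flies were compared with heads of wild type flies at ZT2, 2 h into the light phase, using the libraries titled vriΔ679 ZT2 (replicates 1 and 2) and wild type ZT2 (replicates 1 and 2). These are 4 of the 8 libraries of the series; the other 4 are the same genotypes at ZT14, in the dark phase, with 2 libraries each. The wild type label names the strain w1118, but the wild type libraries held more RNA of the w gene than the vriΔ679 libraries. Which w allele each stock carries was not tested. All flies shared 12 h light and 12 h dark cycles at 25 °C for 3 days before collection, and no treatment other than the light cycle is given. The labels used here give no age, sex or genetic background of the mutant stock, and do not say how many heads went into a library. No label says whether the replicates are separate cultures or collections, so every p-value measures only the spread between these samples, which may be technical.

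VRI (vrille) is a basic leucine zipper repressor of the Drosophila clock. CLK and CYC activate vri through E-boxes, VRI in turn represses Clk, and PDP1, a related activator, works on the same sites in opposition. Outside the clock vri has roles in embryonic development and in cell growth. In a light-dark cycle vri RNA is high in the early night and low in the morning, so ZT2 is a time of low wild type vri RNA.

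Poly(A) RNA was read as 75 nt single-end reads. Mapped reads in the 4 ZT2 libraries, were 49.3 M to 62.6 M, and 9693 to 9893 genes reached 1 FPKM (fragments per kilobase of transcript, per library depth) in each of them. Of 16727 gene symbols listed, 10122 were tested. Levels below are FPKM summed per gene and scaled between libraries, and differences are log2(FPKM + 0.5), vriΔ679 minus wild type, with the standard error (SE) of a limma fit to all 8 libraries and Benjamini-Hochberg adjusted p-values over all genes tested; a gene is called where the adjusted p is under 0.05. All 15 neuron markers and all 9 glia markers examined were expressed, whereas none of 21 gut protease genes passed the filter on low values.

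The targeted gene was read first. Transcripts of the long vri form had 0.0184 and 0.0118 FPKM in the vriΔ679 ZT2 libraries, against 9.70 and 10.7 in the wild type ZT2 libraries. Transcripts of the short form had 3.64 and 4.26 FPKM in vriΔ679 and 0.453 and 0.0443 in wild type. The groups did not overlap for either form, as was also so in 57.7% of all genes tested, and neither form was called. The long form differed by −4.37 (SE 1.66, limma adjusted p = 0.329) and the short form by 2.62 (SE 0.58, limma adjusted p = 0.0852). The labels do not say which form the mutation removes. Summed over forms, vri (2L:5288944-5311223) differed by −1.29 (SE 0.27, limma adjusted p = 0.0618), and was called when either ZT14 library of the mutant was left out (adjusted p of 0.00494 and 0.00503). The library labelled vriΔ679 ZT14 replicate 2 held 30.1 FPKM of the long form, against 0.220 in vriΔ679 ZT14 replicate 1. For this form it was unlike the other vriΔ679 libraries, mostly through the transcript of 3841 bases (27.6 FPKM, unscaled). At w the same library held 0.0819 FPKM, against 5.99 and 5.25 in wild type ZT14, and at CG5391 0, against 28.1 and 29.6. At Mec2 it held 9.57 FPKM, against 0 in both wild type ZT14 libraries, so for these genes it went with the other vriΔ679 libraries. The cause was not tested. None of the values of this library is averaged into the ZT2 group means. It does enter the scaling, the filter on low values, the estimate of spread and every comparison with ZT14.

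At ZT2, 292 genes were called between vriΔ679 and wild type heads, 2.88% of those tested, of which 190 were higher (1.88%) and 102 lower (1.01% of those tested). Some higher genes, such as the dynein gene CG9492 and Or59b, passed the filter on low values only through the vriΔ679 ZT2 libraries. Some lower genes, such as Ipod, passed it only through the wild type ZT2 libraries. Because these genes are high in the group that let them in, the filter raises both counts. The higher genes included odorant-binding proteins and other genes of the antenna, and axonemal dyneins. They also included 3 of 12 fat body secreted protein genes tested and members of a stretch of ecdysteroid kinase-like genes. The rise was 4.04 for Mec2, 3.94 for Os-C and 3.90 for CG10560. The lower genes were a mixed set that included cytochrome P450s, the aldose reductase-like gene CG6084, Sirt4, Pepck and the ocellar opsin Rh2. The median difference was 1.33 over the higher genes and −1.24 over the lower genes, against −0.005 over all genes tested. At least a 2-fold difference was reached by 130 of the higher and 75 of the lower genes, and at least a 4-fold difference by 46 and 19. The libraries of the genotypes did not overlap in any called gene, but that was also so in 57.7% of all genes tested. The count was 81 without vriΔ679 ZT2 replicate 2, 91 without vriΔ679 ZT2 replicate 1, 101 without wild type ZT2 replicate 1 and 91 without wild type ZT2 replicate 2, whereas it was 615 without vriΔ679 ZT14 replicate 1 and 613 without the library labelled vriΔ679 ZT14 replicate 2. Among the fits that each left out 1 of the 8 libraries, 32 higher and 17 lower genes were called in all 8. Some genes no longer passed the filter on low values once a library was left out; counting such genes in the fits that tested them, 50 higher and 18 lower genes kept their call.

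**Figure D1:**
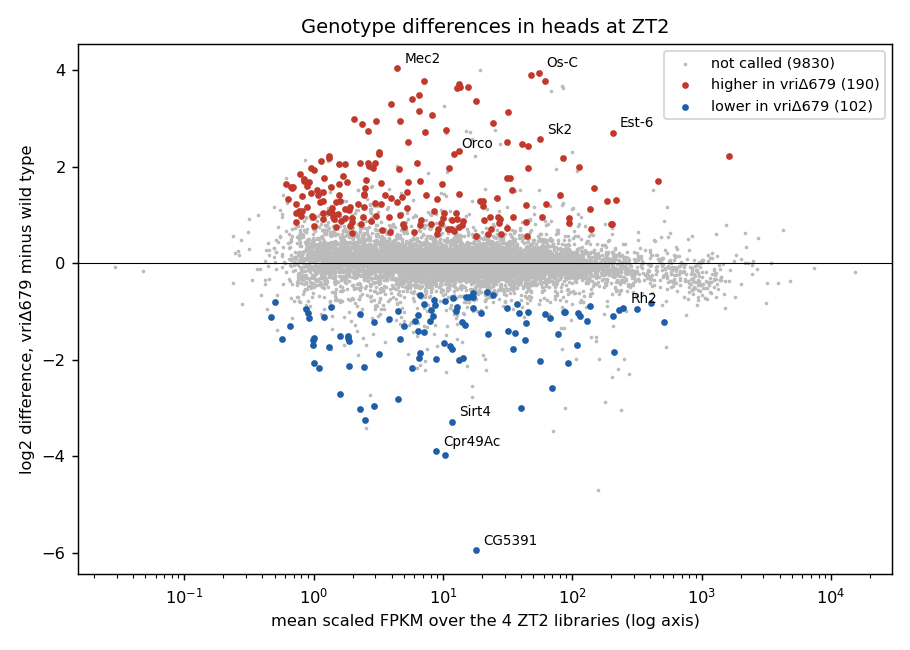
Mean scaled FPKM over the 4 ZT2 libraries (log axis) against the log2 difference, vriΔ679 minus wild type, for each of the 10122 genes tested; red points are the 190 genes called higher in vriΔ679, blue points the 102 called lower, grey points the rest. Calls run from −5.94 for CG5391 to 4.04 for Mec2 and lie mostly at low and middle levels.

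With the ZT14 libraries set beside them, 3 patterns covered all but 19 of the called genes (18 higher and 1 lower). In the first, all 4 vriΔ679 libraries lay on one side of all 4 wild type libraries, at both times of day: 82 of the higher genes (43.2%) and 58 of the lower genes (56.9%), against 6.5% and 6.3% of all genes tested. In the second, genes outside the first pattern had both vriΔ679 ZT2 libraries beyond the other 6 libraries of the series: 72 higher and 15 lower genes, against 5.2% and 6.2% of all genes. In the third, genes outside both had the wild type ZT2 libraries beyond the other 6: 18 higher and 28 lower genes, against 4.4% and 5.3% of all genes. Without this order of precedence, both vriΔ679 ZT2 libraries lay beyond the other 6 in 122 higher (64.2%) and 25 lower genes (24.5%). The shares of all genes were 6.1% and 6.6%. The wild type ZT2 libraries did so in 46 higher and 64 lower genes, against 5.5% and 6.7% of all genes. Genes of the first pattern need not be called at ZT14. The patterns were defined after the values were seen and the calls chose the genes, so the shares describe them and carry no test. Across the time of day, 22.3% of genes were called for genotype at ZT14 and 8.25% for genotype by time, that is, for a genotype difference at ZT2 unlike the one at ZT14. Of the 292 genes, 107 were called in the same direction at ZT14, which is 36.6% of the ZT2 calls and 4.73% of the ZT14 calls, 43 were called in the opposite direction, and 136 were called for genotype by time. Without the library labelled vriΔ679 ZT14 replicate 2, the genes called for genotype by time numbered 4187, and without vriΔ679 ZT14 replicate 1 they numbered 1278, against 835 in all libraries; without any one of the other 6 libraries they numbered 249 to 374.

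**Figure D2:**
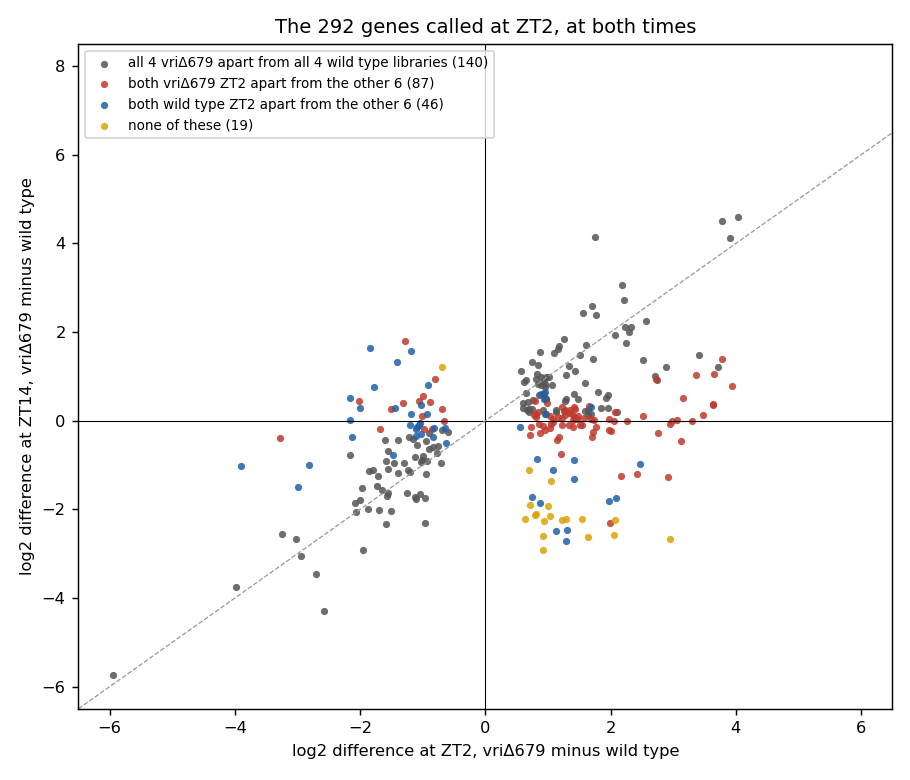
Each point is one of the 292 genes called at ZT2, with its log2 difference (vriΔ679 minus wild type) at ZT2 on the horizontal and at ZT14 on the vertical axis; colours give the pattern and the dashed line marks equal differences. Grey points (140) lie on the same side of 0 at both times, most red points (87) lie close to a ZT14 difference of 0, and most yellow points (19) lie to the lower right, above 0 at ZT2 and below 0 at ZT14.

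Genes known for expression in the antenna were among the rises. Orco, the co-receptor shared by odorant receptors, had 24.9 and 16.5 FPKM in the vriΔ679 ZT2 libraries, against 4.07 and 3.58 in the wild type ZT2 libraries. In the other libraries Orco had 2.98 and 2.51 FPKM (vriΔ679 ZT14) and 3.10 and 2.42 FPKM (wild type ZT14). The vriΔ679 ZT2 heads thus stood furthest apart, and wild type ZT2 heads also lay above all ZT14 libraries. The difference at ZT2 was 2.27 (SE 0.21, adjusted p = 0.00328) and was called in all 8 fits that left out a library; genotype by time gave 2.27 (adjusted p = 0.00876). Obp69a, an odorant-binding protein, had 38.3 and 27.6 FPKM in vriΔ679, against 3.11 and 2.39 in wild type, a difference of 3.36 (SE 0.30, adjusted p = 0.00281). The related antennal gene a5 had 34.3 and 23.7 FPKM in vriΔ679 and 2.69 and 1.20 in wild type, a difference of 3.64 (SE 0.37, adjusted p = 0.00403). The groups did not overlap for either gene, and both genes were called in all 8 fits. The exons of Obp69a overlap CG32104, and no strand setting for counting is stated, so reads of such pairs may not have been kept apart. The same holds for Os-C (with Sfp84E) and Obp59a (with CG30259). In bulk heads, fewer cells of a type and less RNA per cell cannot be told apart.

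The odorant receptor genes with a call showed the same order at low levels. Or59b, which responds to acetate esters, had 2.02 and 1.63 FPKM in vriΔ679, against 0.0703 and 0.112 in wild type (1.97, SE 0.17, adjusted p = 0.00207), and was called in the 6 fits that tested it. Or22b, Or42b and Or85e differed by 1.33, 1.23 and 1.40; their calls were lost without wild type ZT2 replicate 1 or replicate 2, with adjusted p between 0.0721 and 0.141, and like Or59b they did not pass the filter without a vriΔ679 ZT2 library. Of 180 chemosensory receptor genes found, 30 were tested, of which 6 were higher and 1 lower (23.3%), with a median of 0.23. Or59b, Or22b, Or42b and Or85e passed the filter only through the vriΔ679 ZT2 libraries, where they are high. The filter thus raises this share and median, which describe the genes tested only. Between 1 and 6 were higher when a library was left out. The sixth higher gene, Or13a, differed by 1.02 at ZT2 and by 0.98 at ZT14. Its call was lost without any single ZT2 library or either wild type ZT14 library (adjusted p = 0.0862 to 0.227). Ir75a, an ionotropic receptor for acids, went the other way, with 3.57 and 3.35 FPKM in vriΔ679 and 8.73 and 8.49 in wild type (−1.20, SE 0.13, adjusted p = 0.00585); the call was lost without vriΔ679 ZT2 replicate 2 or either wild type ZT2 library (adjusted p = 0.0564 to 0.0660). Wild type ZT14 libraries held 3.94 and 3.15 FPKM of Ir75a, so there the wild type ZT2 heads were the ones apart.

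Odorant-binding proteins are small secreted proteins of the lymph around olfactory and taste neurons. Of 31 tested, 5 were higher and 1 lower (19.4%), with a median of 0.09; without vriΔ679 ZT2 replicate 1, vriΔ679 ZT2 replicate 2 or wild type ZT2 replicate 2 there was 1 higher call. Obp83b had 139 and 90.5 FPKM in vriΔ679, against 8.85 and 6.72 in wild type. Its difference of 3.78 (SE 0.66, adjusted p = 0.0438) lost its call without any ZT2 library or either wild type ZT14 library (adjusted p = 0.0876 to 0.260). Its neighbour Obp83a had 194 and 120 FPKM in vriΔ679 and 14.4 and 9.85 in wild type, and was not called (3.62, adjusted p = 0.139). Obp28a, Obp59a and Obp19a differed by 2.17, 3.15 and 3.66 (adjusted p = 0.00757 to 0.0113); each call was lost without either vriΔ679 ZT2 library or without wild type ZT2 replicate 2 (adjusted p = 0.0534 to 0.0883). The pheromone-sensing lush was not called, with 32.2 and 16.4 FPKM in vriΔ679 and 11.1 and 7.56 in wild type. Obp56h was lower, with 26.7 and 23.8 FPKM in vriΔ679 and 54.4 and 49.6 in wild type (−1.03, adjusted p = 0.0487), and lost its call without any ZT2 library (adjusted p = 0.173 to 0.280).

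Other genes known from the antenna were higher too. Snmp1, a membrane protein needed to sense the pheromone cVA, had 21.5 and 17.8 FPKM in vriΔ679, against 7.65 and 6.26 in wild type (1.43, SE 0.14, adjusted p = 0.00372). Os-C, which is named for its olfactory expression, had 118 and 88.5 FPKM in vriΔ679, against 8.48 and 4.49 in wild type, and at most 1.44 in any ZT14 library. Its difference of 3.94 (SE 0.59, adjusted p = 0.0231) was lost without any ZT2 library or either wild type ZT14 library (adjusted p = 0.0579 to 0.152). CG6499, whose current symbol is Amt, encodes an ammonium transporter and had 5.32 and 3.83 FPKM in vriΔ679 and 0.893 and 0.621 in wild type (adjusted p = 0.00372). Jhedup, a juvenile hormone esterase duplication, had 46.2 and 40.5 FPKM in vriΔ679 ZT2, against 6.42 and 4.40 in wild type ZT2 (2.91, SE 0.27, adjusted p = 0.00324), whereas its ZT14 difference was −1.27 (adjusted p = 0.0203). Snmp1 and Jhedup were called in all 8 fits, and CG6499 in the 6 fits that tested it.

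A list of 32 antennal genes was drawn up after the values were seen, so its counts describe the genes chosen and support nothing. Of its 23 genes tested, 17 were higher and 1, Ir75a, was lower, with a median of 2.27 at ZT2 and 0.17 at ZT14, against −0.005 over all genes at ZT2. Of these, 4 called genes, among them Or59b and CG6499, passed the filter only through the vriΔ679 ZT2 libraries, where they are high, which raises the count and the median. The second pattern, with both vriΔ679 ZT2 libraries beyond the other 6, held in 19 of the 23. Summed over the list, FPKM was 1410 and 1052 in vriΔ679 ZT2, against 214 and 158 in wild type ZT2; it was 201 and 162 in vriΔ679 ZT14 and 173 and 116.5 in wild type ZT14. Ir25a and Ir76b, co-receptors that taste organs also use, differed by 0.44 and 0.03 and were not called. The higher calls numbered 5 without one or the other vriΔ679 ZT2 library, where those 4 genes were not tested, 11 without wild type ZT2 replicate 1 and 7 without wild type ZT2 replicate 2. With a pseudocount of 0.1 in place of 0.5 the calls of Os-C, Obp83b, Obp19a and Obp59a were lost. Whether the amount of antennal tissue per library differed was not tested.

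**Figure D3:**
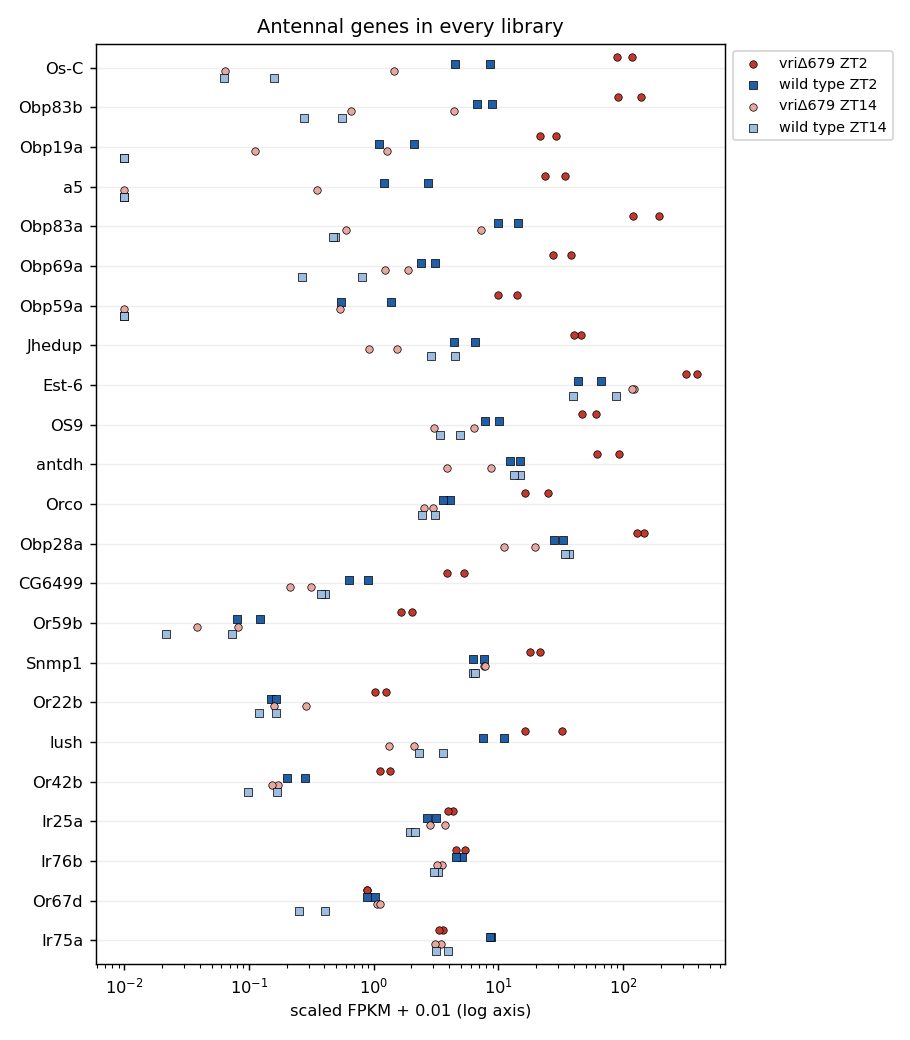
Scaled FPKM + 0.01 (log axis) of the 23 antennal genes tested, ordered by their ZT2 difference, in all 8 libraries: circles are vriΔ679, squares wild type, dark colours ZT2, pale colours ZT14. From Os-C down to Or42b the 2 vriΔ679 ZT2 points lie to the right of all others, whereas Ir76b, Or67d and Ir75a do not show this.

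Genes of the ciliary axoneme, which fly heads build in ciliated sensory neurons, were also found among the rises. CG9492, an axonemal dynein heavy chain gene with the current symbol Dhc1, had 1.76 and 2.54 FPKM in vriΔ679 and 0.103 and 0.114 in wild type. It rose by 2.11 (SE 0.18, adjusted p = 0.00233), and its 4 ZT14 values were 0.0446 to 0.156 FPKM. CG5048, the dynein assembly factor Dnaaf6, had 1.58 and 1.68 FPKM in vriΔ679, against 0.291 and 0.256 in wild type (1.46, SE 0.14, adjusted p = 0.00338). Both genes were called in the 6 fits that tested them, and for neither did the groups overlap. The dynein genes Dhc93AB, CG6053 (Dnai2) and CG9313 differed by 1.52, 1.57 and 1.48 (adjusted p = 0.00559 to 0.0103). Their calls were lost without wild type ZT2 replicate 1, and that of CG6053 also without wild type ZT2 replicate 2 (adjusted p = 0.0510 to 0.0777). CG9313 overlaps CG15651.

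Of 39 cilium genes listed after the values were seen, 20 were tested, 9 were higher and 1 was lower, with a median of 0.74 at ZT2 and 0.19 at ZT14. As 7 of the called genes passed the filter only through the vriΔ679 ZT2 libraries, where they are high, the count and median are raised by the filter and describe the genes tested only. The median was 0.39 without vriΔ679 ZT2 replicate 1 and 0.43 without vriΔ679 ZT2 replicate 2. The higher genes also included the hearing channel subunit iav (0.98), the Bardet-Biedl genes BBS4 (1.28) and Arl6 (1.41) and the intraflagellar transport gene CG17599 (0.77). No member was higher without vriΔ679 ZT2 replicate 1 or without vriΔ679 ZT2 replicate 2, where those 7 genes were not tested. The call of CG17599 was also lost in the ZT2 libraries alone (adjusted p = 0.0503). Without wild type ZT2 replicate 1 the higher calls numbered 2, and without wild type ZT2 replicate 2 they numbered 4. nompA, Oseg1 and Rfx differed by 0.10, −0.06 and 0.05 and were not called. The lower gene was Zmynd10, a dynein assembly factor, which had 1.18 and 1.02 FPKM in vriΔ679 and 5.47 and 5.21 in wild type (−1.87, SE 0.13, adjusted p = 0.00101), and 0.501 and 0.645 in vriΔ679 ZT14, against 3.86 and 3.72 in wild type ZT14. The summed FPKM of the list was 60.8 and 61.7 in vriΔ679 ZT2 and 39.1 and 39.9 in wild type ZT2, with 33.5 to 44.2 at ZT14.

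Some genes, chosen after their values were seen, were higher in vriΔ679 at ZT2 and lower in vriΔ679 at ZT14. CG15080 had 4.51 and 5.09 FPKM in vriΔ679 at ZT2, against 1.66 and 1.89 in wild type, and 1.42 and 1.495 in vriΔ679 at ZT14, against 8.34 and 9.05 in wild type. Its differences were 1.22 (SE 0.12, adjusted p = 0.00403) and −2.23 (adjusted p = 0.000195), and it was called at ZT2 in all 8 fits. CG13044, also called in all 8, had 70.0 and 68.5 FPKM in vriΔ679 ZT2 against 14.0 and 10.5 in wild type ZT2 (2.47, SE 0.23, adjusted p = 0.00324; −0.99 at ZT14). CG16884 and CG16885, also named Vajk3 and Vajk2, differed by 1.28 and 1.31 at ZT2 and by −2.72 and −2.48 at ZT14. The chitin-binding protein gene Gasp and the cuticle protein gene Cpr76Bd differed by 0.71 and 0.91 at ZT2, and by −1.89 and −2.60 at ZT14. The ZT2 calls of CG16884, CG16885, Gasp and Cpr76Bd were each lost without any single ZT2 library (adjusted p = 0.0593 to 0.280), and that of Gasp also without either wild type ZT14 library (lowest adjusted p = 0.0509).

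Among 50 cuticle protein genes tested, 5 were higher and 2 lower (14.0%), with a median of 0.20 at ZT2 and −0.89 at ZT14. No higher call was left without vriΔ679 ZT2 replicate 2 or wild type ZT2 replicate 2, and 12 and 13 were higher without one or the other vriΔ679 ZT14 library. Cpr49Ac was lower, with 0.314 and 1.16 FPKM in vriΔ679 against 14.2 and 19.8 in wild type (−3.90, SE 0.33, adjusted p = 0.00207), and its 4 ZT14 values were 0.0377 to 0.695 FPKM. Of 12 genes for fat body secreted proteins tested, Fbp1, Fbp2 and fit were higher (25.0%). The list as a whole was split, with 6 differences above 0, 6 below 0 and a median of 0.09. Fbp2, an alcohol dehydrogenase-like fat body protein, had 5.59 and 5.83 FPKM in vriΔ679 and 0.441 and 0.196 in wild type (2.94, SE 0.40, adjusted p = 0.0123), with −2.67 at ZT14. The female-enriched satiety peptide gene fit had 202 and 156 FPKM in vriΔ679, against 64.3 and 30.7 in wild type (1.98, SE 0.33, adjusted p = 0.0264). In the ZT2 libraries alone fit was not called (adjusted p = 0.125). Fbp2 overlaps CG42847 and fit overlaps CG31465. The calls of Fbp1, Fbp2 and fit were lost without vriΔ679 ZT2 replicate 2 or wild type ZT2 replicate 2, among other libraries (adjusted p = 0.0536 to 0.168). The storage protein gene Lsp2 was not called, at 258 and 78.0 FPKM in vriΔ679 and 34.4 and 23.4 in wild type. Yolk protein genes, a sign of female tissue, overlapped between genotypes: Yp1 had 3957 and 2688 FPKM in vriΔ679 and 5599 and 3406 in wild type. The part of the share of female tissue in these results was not tested.

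Some called genes sat side by side in the genome, and several of these differed at both times of day. On 3R, a stretch of 49.9 kb (25270231 to 25320101, dm6) held 19 genes tested, all of them ecdysteroid kinase-like genes, a family of predicted small-molecule kinases. Of the 19, 7 were higher and 2 lower, whereas 2.88% of all genes tested were called. Of the 11 family members called anywhere, 9 lay in this stretch. Its borders were set at the called genes CG11891 and CG10560 after the values were seen. These counts therefore describe the stretch and carry no test. CG10560 had 95.4 and 83.6 FPKM in vriΔ679, against 6.43 and 4.68 in wild type, a difference of 3.90 (SE 0.17, adjusted p = 0.000166), next to 4.12 at ZT14. CG13659 and CG31288, which lie next to each other but not to CG10560, differed by 2.07 (adjusted p = 0.000516) and 2.30 (adjusted p = 0.00186). Both were also higher at ZT14 (adjusted p of 0.000326 and 0.00108). These 3 genes were called in all 8 fits. CG11893 had 4.38 and 4.74 FPKM in vriΔ679 and 19.3 and 12.2 in wild type (−1.65, SE 0.25, adjusted p = 0.0189; −1.57 at ZT14); its call was lost without either vriΔ679 ZT2 library or without wild type ZT2 replicate 1 (adjusted p = 0.0919 to 0.128). Neighbours such as CG31098 (0.02) and CG31436 (0.21) were not called.

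In this stretch CG10513 followed another pattern. It had 16.8 and 13.9 FPKM in vriΔ679 ZT2, against 62.7 and 45.7 in wild type ZT2, but 18.4 and 13.9 in vriΔ679 ZT14, against 8.47 and 10.02 in wild type ZT14. The ZT2 difference was −1.77 (SE 0.21, adjusted p = 0.00763) and the ZT14 difference 0.76 (adjusted p = 0.0421), and the ZT2 call was lost without vriΔ679 ZT2 replicate 2 or wild type ZT2 replicate 1 (adjusted p = 0.0510 and 0.0716). CG11891 differed by 1.76 at ZT2 and by 4.15 at ZT14, with 52.9 and 48.9 FPKM in vriΔ679 ZT2 and 111 and 94.5 in vriΔ679 ZT14; it overlaps CG11889, and its call was lost without either vriΔ679 ZT2 library or without wild type ZT2 replicate 2 (adjusted p = 0.0636 to 0.0830). Over 41 ecdysteroid kinase-like genes tested in the genome, listed after the values were seen, 8 were higher and 3 lower (26.8%), with a median of 0.27. The higher calls ranged from 3 (without wild type ZT2 replicate 2) to 9 (without a vriΔ679 ZT14 library), and the lower calls from 0 (without wild type ZT2 replicate 1 or vriΔ679 ZT2 replicate 2) to 3. Similar paralogs can share reads, so values of single members are uncertain.

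**Figure D4:**
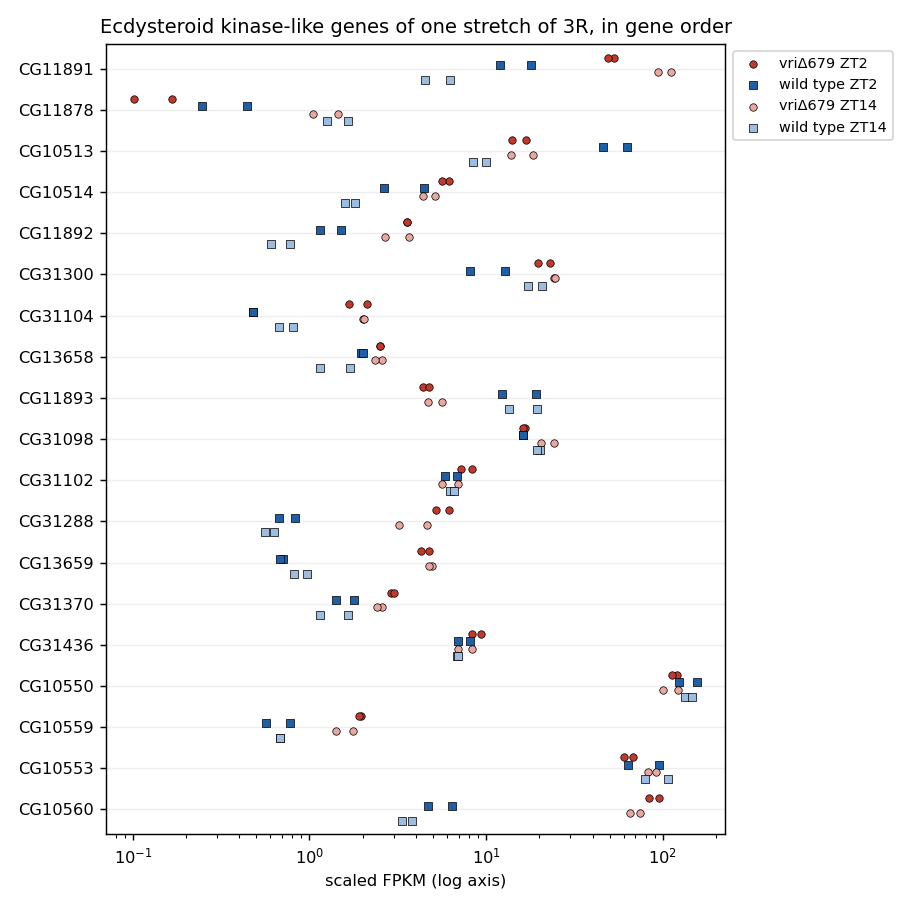
Scaled FPKM (log axis) of the 19 genes tested in the 3R stretch, in gene order, in all 8 libraries: circles are vriΔ679, squares wild type, dark colours ZT2, pale colours ZT14. Genes with 4 circles to one side of 4 squares, such as CG10560, CG13659 and CG31288, alternate with genes such as CG31098 and CG31436 whose points mix.

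A smaller stretch on 3L held 5 neighbouring rises. Sk2 (3L:3047087-3050159), a sphingosine kinase, had 98.2 and 95.6 FPKM in vriΔ679 and 14.7 and 17.4 in wild type (2.56, SE 0.12, adjusted p = 0.000225; 2.26 at ZT14), and was called in all 8 fits. Beside it CG32485, CG1271 and CG32486 differed by 0.83, 0.89 and 0.81 at ZT2 and by 1.26, 0.99 and 0.95 at ZT14, while scramb2 differed by 0.85 at ZT2 and −0.08 at ZT14; these 4 calls were lost without any single ZT2 library (highest adjusted p = 0.257). On 2L 5 neighbours were lower. There CG3515 (2L:2551145-2552825) had 0.0640 and 0.0771 FPKM in vriΔ679 and 4.93 and 4.96 in wild type (−3.25, SE 0.13, adjusted p = 9.75e-05; −2.56 at ZT14), and the noncoding CR44113 and the cytochrome P450 gene Cyp309a2 differed by −3.03 and −2.95, and all 3 were called in all 8 fits. The insulator protein genes insv and Elba2 differed by −1.16 and −1.60 at ZT2, and were not called at ZT14 (−0.40 and −0.43); their calls were lost without vriΔ679 ZT2 replicate 2 or either wild type ZT2 library, and that of insv also without vriΔ679 ZT2 replicate 1 (adjusted p = 0.0698 to 0.140). Among the 140 genes of the first pattern, 49 (35.0%) had another called gene within 25 kb, against 28.7% in the second pattern, 37.0% in the third and 14.7% of all genes tested.

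None of the 13 genes tested within 50 kb of vri on 2L was called by limma. Among them were cype, Bub1 and tkv, a receptor of the Dpp pathway. Of the 13, 2 had an unadjusted p under 0.05, against 1455 of all 10122 genes tested. CG14022, one of the 13, had 51.9 and 53.9 FPKM in vriΔ679, against 30.8 and 27.8 in wild type (0.84, SE 0.18, adjusted p = 0.0672). CG14022 was called without one or the other vriΔ679 ZT14 library (adjusted p of 0.00511 and 0.0054), in the ZT2 libraries alone (adjusted p = 0.0138), and at ZT14 (1.08, adjusted p = 0.00878). By chromosome arm, 3.82% of genes were called on 3L, 3.2% on 2L, 2.96% on 3R, 2.8% on X and 1.81% on 2R. The white gene w encodes an eye pigment transporter, and w1118 is a loss-of-function allele of it. In these libraries w had 0.0338 and 0.0504 FPKM in vriΔ679 and 2.12 and 4.24 in wild type (−2.70, SE 0.27, adjusted p = 0.00372), and 5.99 and 5.25 in wild type ZT14. All 4 libraries labelled w1118 thus held w RNA, and the genotypes differed at w as well as at vri. Which w allele each stock carries was not tested, so the level of w leaves the strain label uncertain. Effects of vri and of other differences between the stocks cannot be told apart in these groups.

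Sirt4, a mitochondrial sirtuin, had 1.01 and 2.83 FPKM in vriΔ679, against 22.3 and 20.6 in wild type, and 14.8 to 25.3 in the 4 ZT14 libraries. Its difference of −3.29 (SE 0.35, adjusted p = 0.00545) was called in all 8 fits that left out a library, but not in the ZT2 libraries alone (adjusted p = 0.0531). The noncoding CR45520 overlaps Sirt4 on the X chromosome and had 14.7 and 11.6 FPKM in vriΔ679 and 4.70 and 5.08 in wild type (1.33, adjusted p = 0.0210; lost without any ZT2 library, adjusted p = 0.0800 to 0.142). Reads of this pair, too, may not have been kept apart. Eip71CD, a methionine sulfoxide reductase, had 62.1 and 54.3 FPKM in vriΔ679, against 128 and 106 in wild type, and the crystallin-like chaperone gene l(2)efl had 95.4 and 96.4 in vriΔ679, against 169 and 185 in wild type. Rh2, the opsin of the ocelli, had 174 and 166 FPKM in vriΔ679, against 331 and 318 in wild type; the 4 ZT14 libraries held 164 to 213, so wild type ZT2 was the group apart. The calls of these 3 genes were lost without any single ZT2 library, and those of l(2)efl (−0.88) and Rh2 (−0.93) also without either wild type ZT14 library (adjusted p = 0.0548 to 0.251).

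Metabolic and secreted genes with a lower level at both times included CG6084, an aldose reductase gene with the current symbol Akr1B. It had 22.0 and 17.1 FPKM in vriΔ679 and 139 and 101 in wild type (−2.58, SE 0.28, adjusted p = 0.00556; −4.30 at ZT14), and its call was lost without vriΔ679 ZT2 replicate 2 (adjusted p = 0.0534). Pepck, the gluconeogenic enzyme, had 160 and 148 FPKM in vriΔ679 and 295 and 308 in wild type (−0.97, SE 0.13, adjusted p = 0.0112; −2.31 at ZT14). Tsf1, an iron-binding transferrin, and Mmp1, a matrix metalloproteinase, differed by −1.23 and −1.25 at ZT2 and by −1.10 and −1.64 at ZT14. The calls of Pepck and Tsf1 were lost without any single ZT2 library, that of Mmp1 without vriΔ679 ZT2 replicate 1 or either wild type ZT2 library, and those of Tsf1 and Mmp1 also without either wild type ZT14 library (adjusted p = 0.0530 to 0.244). In the ZT2 libraries alone Mmp1 was not called (adjusted p = 0.0503). Pepck overlaps CG45087 and Mmp1 overlaps Pof. Basement membrane and hemocyte markers had 13 of 15 differences below 0, with a median of −0.30 and 1 call, BM-40-SPARC (−1.10, adjusted p = 0.0413; lost without any ZT2 library or either wild type ZT14 library, adjusted p = 0.0855 to 0.255, and in the ZT2 libraries alone, adjusted p = 0.0621).

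Insulin-like peptide genes were called in both directions. Ilp3, an insulin-like peptide of brain neurosecretory cells, had 61.3 and 61.1 FPKM in vriΔ679, against 28.2 and 24.4 in wild type (1.21, SE 0.17, adjusted p = 0.0126), and went the other way at ZT14 (−0.76). Ilp8, a growth-coordinating peptide, had 0.477 and 0.678 FPKM in vriΔ679, against 1.59 and 2.06 in wild type (−1.11, SE 0.18, adjusted p = 0.0221). It overlaps CG7730, and its call was lost without either vriΔ679 ZT2 library or either wild type ZT14 library (adjusted p = 0.0532 to 0.156). The Drosomycin-like gene Drsl5 had 617 and 803 FPKM in vriΔ679 and 228 and 204 in wild type (1.71, SE 0.23, adjusted p = 0.0121; 2.58 at ZT14). The calls of Ilp3 and Drsl5 were lost without any single ZT2 library (adjusted p up to 0.112). Drsl5 was the only call among 34 antimicrobial peptide genes tested, whose median was −0.07; DptB had 7.34 and 291 FPKM in vriΔ679 and 186 and 319 in wild type, so its replicates lay far apart. GstE4, a glutathione S-transferase, had 64.0 and 51.7 FPKM in vriΔ679, against 6.46 and 5.89 in wild type (3.12, SE 0.34, adjusted p = 0.00534). It was called in all 8 fits. Of 31 glutathione S-transferase genes 5 were higher and none lower (16.1%); besides GstE4 these were GstD8, GstD11, GstE5 and GstZ2, with differences of 0.89 to 1.40, and of the 5 GstE4 alone was called without vriΔ679 ZT2 replicate 1 or wild type ZT2 replicate 2. Of 71 cytochrome P450 genes, 2 were higher and 4 lower (8.5%), the lower ones including Cyp12a5 (−1.79, adjusted p = 0.00101) and Cyp316a1 (−1.59, adjusted p = 0.00492; lost without vriΔ679 ZT2 replicate 1).

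Clock genes themselves hardly entered the calls. None of the 5 evening genes (such as per, tim and vri) and none of the 20 other clock genes was called by limma. Their medians were 0.15 and 0.03. At an unadjusted p under 0.05 there was 1 gene in each list, against 1455 of all 10122 genes tested. Clk, the target that VRI represses, differed by 0.40 (adjusted p = 0.300), and was called without vriΔ679 ZT14 replicate 1 or the library labelled vriΔ679 ZT14 replicate 2 (adjusted p of 0.0398 and 0.0405). The neuropeptide gene Pdf, with 63.5 and 56.9 FPKM in vriΔ679, differed by −0.43 (adjusted p = 0.157) and was called in the same pair of fits (adjusted p of 0.0492 and 0.0496). The 1 call among 11 clock output genes was dysc, a scaffold protein needed for rhythmic output, with 31.1 and 39.4 FPKM in vriΔ679 and 18.9 and 16.7 in wild type (0.96, SE 0.14, adjusted p = 0.0184). It was lost without vriΔ679 ZT2 replicate 2 or any of the wild type libraries (adjusted p = 0.0529 to 0.157).

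Ribosomal protein and proteasome genes gave no call at ZT2 by limma. Of 84 cytosolic ribosomal protein genes, 74 were below 0, with a median of −0.37 at ZT2 and 0.56 at ZT14. In this list 11 had an unadjusted p under 0.05, against 1455 of all 10122 genes tested. Proteasome subunits had 29 of 36 below 0, with a median of −0.14 and 1 at an unadjusted p under 0.05. Heat shock proteins and chaperones had 23 of 25 below 0 with a median of −0.39. Among them Hsc70-2 was higher (1.58, limma adjusted p = 0.00416) and l(2)efl lower. Hsc70-2 had 1.21 and 1.29 FPKM in vriΔ679 ZT2, against 0.0453 and 0.123 in wild type ZT2. It passed the filter on low values only through the vriΔ679 ZT2 libraries, where it is high. The median difference was −0.01 over 15 neuron markers, −0.14 over 9 glia markers and 0.09 over 21 muscle markers, with no call in any of these lists and 1, 1 and 6 genes at an unadjusted p under 0.05. Phototransduction genes (22 tested) and acetylcholine receptor subunits (9 tested) had medians of −0.10 and −0.05 and no call either, with 3 and 0 genes at an unadjusted p under 0.05.

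Transcript by transcript, 140 of 18982 were called (0.738%), 81 higher and 59 lower. Of these, 81 belonged to 66 genes whose summed level was not called, and in 10 of those genes transcripts were called in both directions. Only 20 of the 81 were also called in the same direction at ZT14, and 21 were called in every alternative fit that tested them. In jagn, the transcript of 1104 bases had 39.2 and 36.9 FPKM in vriΔ679 ZT2, against 0.0963 and 0.127 in wild type ZT2 (5.98, SE 0.22, adjusted p = 0.0016), and 0.085 to 0.1093 FPKM in the 4 ZT14 libraries. The jagn transcript of 1649 bases, which has the same start and number of exons and a later end, had 18.9 and 16.9 FPKM in vriΔ679 ZT2 and 42.4 and 41.6 in wild type ZT2, while the gene as a whole differed by 0.40 and was not called. In Gpb5, the beta subunit gene of a glycoprotein hormone, the transcript of 697 bases had 18.9 and 17.6 FPKM in vriΔ679 ZT2 and 0.136 and 0.107 in wild type ZT2. The Gpb5 transcript of 734 bases had 1.58 and 1.42 in vriΔ679 ZT2 and 21.0 and 20.04 in wild type ZT2. The call of the shorter one was lost without wild type ZT2 replicate 1.

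In some of these genes the split among transcripts also differed between the times of day. In Tim17b, an inner membrane translocase subunit of mitochondria, the transcript of 961 bases had 0.0035 and 0.0143 FPKM in vriΔ679 ZT2 and 12.5 and 12.3 in wild type ZT2, but 23.2 and 25.0 in vriΔ679 ZT14 and 0.0441 and 0.0151 in wild type ZT14. In UbcD2, a ubiquitin-conjugating enzyme gene, a different transcript made up most of the level in vriΔ679 ZT2 (1558 bases, 19.2 and 18.5 FPKM), in both wild type groups (1625 bases, 17.9 and 19.5 FPKM at ZT2) and in vriΔ679 ZT14 (2111 bases, 24.9 and 25.3 FPKM). Replicates did not always share a split: the vri transcript of 3841 bases had 0 and 27.6 FPKM, unscaled, in vriΔ679 ZT14 and 27.1 and 5.99 in wild type ZT14. Values of single transcripts rest on the authors' estimates of how reads divide among transcripts that share exons.

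**Figure D5:**
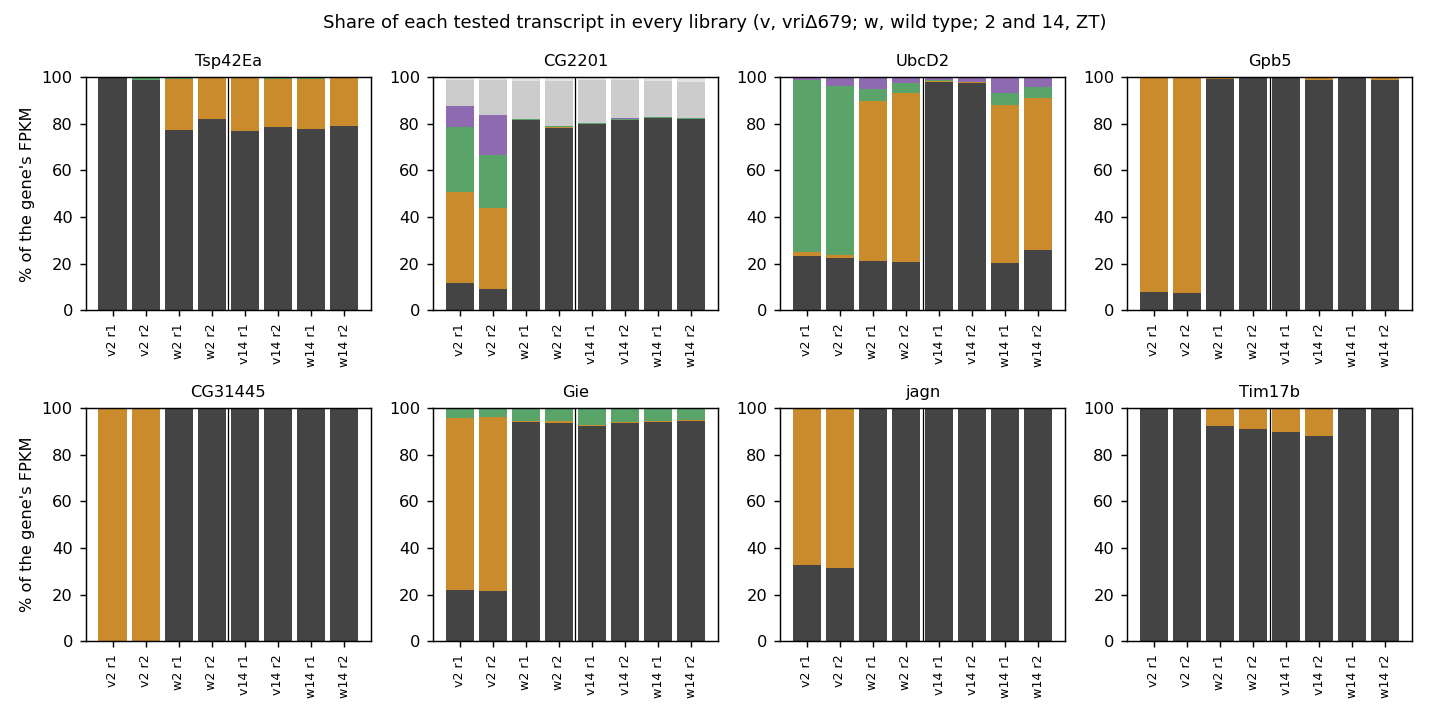
Percent of the FPKM of each gene carried by each of its tested transcripts (colours, within a gene) in all 8 libraries, for the 8 genes with the smallest transcript p-values among genes not called; the vertical line separates ZT2 from ZT14. In Gpb5, CG31445, Gie, jagn and CG2201 the 2 vriΔ679 ZT2 libraries stand apart from the other 6, and in UbcD2 and Tim17b the ZT14 libraries of the genotypes also differ.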

How the data were processed

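Per the labels, poly(A) RNA from heads was made into directional libraries and read as 75 nt single ends, 4 libraries to a run. STAR 2.6.1d, StringTie and the dm6 build are given in the submitters' processing notes; the strand setting and parameters are not given in the sources used here. Per the file headers, the authors deposited FPKM and a second signal column, coverage, for 35411 transcripts of each library; coverage over FPKM gave the mapped reads. FPKM was summed per gene symbol, scaled between libraries with median-of-ratios factors from 12078 genes, filtered (at least 1 FPKM in 2 of the libraries in that fit, so a gene can drop out when a library is left out) and fitted as log2(FPKM + 0.5) with limma 3.58.1 (R 4.3.3, trend and robust eBayes) as 4 group means over all 8 libraries. The spread of the lone library left when 1 is removed is assumed to be that of the other groups. On data simulated with these spreads for 9913 genes, 57 of 100 genes changed 2-fold and 86 of 100 changed 4-fold were recovered. This was for vriΔ679 ZT2 against wild type ZT2, with 2 false calls. Changed genes were drawn from all but those at the lowest mean levels, and noise was independent between genes and libraries. Effects shared across a library were not simulated, so these rates may not hold for the deposited data.

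Exon overlaps come from the Ensembl BDGP6.54 annotation and current symbols from RefSeq. Coordinates are those of the deposited tables. The genes named are clock genes, the largest called rises and falls, the called members of each gene list with the smallest p, neighbours of vri, genes called for genotype by time, and transcripts called in genes not called; members of the antennal, cilium and ecdysteroid kinase-like lists, neighbours of called genes and genes with opposite differences at ZT2 and ZT14 were added after their values were seen. All lists and members were chosen with earlier results of these data known. Promoter sequences were not analysed here. Alternatives were other filters, pseudocounts, scalings and eBayes options, the ZT2 libraries alone, a replicate block, transcripts as features and each library left out.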

Additional observations from a re-analysis of the deposited data

Results flagged for a closer look

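For the genes below the difference between vriΔ679 and wild type at ZT2 was itself unlike that at ZT14, by the genotype by time term of the limma fit (adjusted p under 0.05); each value is the ZT2 difference minus the ZT14 difference on the log2 scale. Some values rest on the libraries of vriΔ679 at ZT14. Of these, the library labelled replicate 2 was unlike the other vriΔ679 libraries for the long vri form.

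Among antennal and chemosensory genes the value was 4.18 for Jhedup, 3.41 for Obp28a, 3.26 for a5, 2.63 for Obp59a, 2.33 for Obp69a, 2.27 for Orco, 1.94 for Or59b and −1.10 for Ir75a. Other genes high in vriΔ679 at ZT2 gave 3.59 for GstE4, 3.36 for CG10185, 3.30 for CG10357, 3.27 for CG11391, 2.49 for CG13133, 1.92 for CG43149, 1.39 for GstD8 and 1.36 for Hsc70-2. Of the genes in this paragraph, Or59b, CG10185, CG10357 and Hsc70-2 passed the filter only through the vriΔ679 ZT2 libraries, where they are high. Their values describe genes that the filter let in that way.

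Among fat body secreted protein genes the value was 5.6 for Fbp2, 4.62 for Fbp1 and 4.29 for fit, and among cuticle protein genes 2.19 for Cpr47Ef, 1.03 for Cpr66D and −2.87 for Cpr49Ac. CG4017, CG13063, CG16884 and CG7031, which are on none of the gene lists, gave 4.31, 4.26, 4.01 and 3.83. Metabolic and peptide genes gave 1.96 for Ilp3, 1.72 for CG6084 and 1.34 for Pepck.

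Among genes lower in vriΔ679 at ZT2 the value was −2.89 for Sirt4, −2.68 for CR45204, −2.18 for mir-4986, −1.77 for Ipod, −1.56 for Eip71CD, −1.30 for l(2)efl, and −1.08 for Rh2. Of these, mir-4986 and Ipod passed the filter only through the wild type ZT2 libraries, where they are high. CG8757, higher in vriΔ679 at both times, gave −0.73.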

How the results depend on the processing

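The number of genes called at ZT2 was 172 (103 higher) with a minimum of 5 FPKM, 447 (179 lower) in the ZT2 libraries alone, 620 (346 higher, 274 lower) without both vriΔ679 ZT14 libraries, and 140 with transcripts as features. It was 145 (68 higher) without the genes whose vriΔ679 ZT2 libraries stood outside all others; this alternative, and leaving out both vriΔ679 ZT14 libraries, were chosen after seeing the data. With 1 library left out it ranged from 81 to 615 (44 to 350 higher, 29 to 270 lower), genotype by time calls from 249 to 4187, and transcript calls from 44 to 259 (13 to 155 higher, 17 to 104 lower). The cause was not tested. Of the 292 calls, 288 were shared with the fit without both vriΔ679 ZT14 libraries.

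Replicate numbers did not pair the samples (correlations of deviations −0.143 to 0.270 over the pairs of groups). With a replicate block, 322 genes were called, transcripts called numbered 63 (34 higher, 29 lower), and vri differed by −1.29 and was called.

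vri was also called in the ZT2 libraries alone (−1.30), without both vriΔ679 ZT14 libraries (−1.295), and without one or the other of them (−1.296 and −1.29); with any 1 library left out its difference ranged from −1.398 to −1.191.

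Some genes that were not called changed sign. With a library left out, cyc ranged from −0.093 to 0.049, Ugt35b from −0.004 to 0.352, CG14024 from −0.04 to 0.17, Cyp4ac1 from −0.657 to 0.016, Ncoa6 from −0.133 to 0.251, tkv from −0.001 to 0.084, CG12512 from −0.112 to 0.117 and fusl from −0.344 to 0.155. The sign also changed for cyc without rescaling (0.052) and with equal totals (0.076), for fusl with equal totals (0.001) and for CG12512 in the ZT2 libraries alone (−0.002). A call could also end because a gene no longer passed the filter on low values; such genes were not tested in that fit.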
